A study of Mus musculus with 6 samples.

Results

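The genes described here are 40 genes of the renal interstitial stroma and of its fibrillar matrix. They were taken by name from the 27179 gene entries of 1 deposited expression table, as genes of this tissue and function, with earlier results of these data known. RNA was sequenced from nephron progenitors of E16.5 mouse kidneys, the embryonic cells from which nephrons form. Progenitors were sorted by a green fluorescent protein under the control of Six2, a transcription factor of these cells. Control progenitors carried Six2TGC, a transgene that makes the fluorescent protein and Cre recombinase, and mutant progenitors carried Six2TGC and floxed alleles of the miR-17~92 microRNA cluster (Six2TGC;miR-17~92fl/fl). Both genotypes thus carry the transgene, and the labels name no floxed allele in the controls and no strain. The 3 libraries of a genotype came from separate pools of 4 embryos each, so that differences between single embryos are not seen. Cre is made under the same Six2 control as the fluorescent protein used for the sort.

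Interstitial stroma surrounds the nephron progenitors in the outer kidney, and most of it descends from cells that express the transcription factor Foxd1. Stromal cells secrete procollagens, which are trimmed, assembled into fibrils and cross-linked, while small leucine-rich proteoglycans bind the fibrils and fibronectin and tenascin link them to cells. Several of the 40 genes are not specific to stroma: Vim, Fn1, Sparc and Meis2, for example, are expressed in many mesenchymal cells. In RNA from a sorted pool, fewer cells of a type and less RNA per cell cannot be told apart.

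The deleted cluster makes 6 microRNAs, which are shown because their seeds define the target sites that were looked for in the 40 genes. A seed is the stretch from base 2 to base 8 that pairs with target messenger RNAs. The mature sequences are those of RefSeq on GRCm38.p6, all from the plus strand of chromosome 14, and capitals mark the seed. miR-17 and miR-20a share a seed, and so do miR-19a and miR-19b.
mmu-miR-17-5p: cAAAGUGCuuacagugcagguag
mmu-miR-20a-5p: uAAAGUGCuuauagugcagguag
mmu-miR-18a-5p: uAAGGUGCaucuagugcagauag
mmu-miR-19a-3p: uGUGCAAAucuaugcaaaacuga
mmu-miR-19b-3p: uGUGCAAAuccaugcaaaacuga
mmu-miR-92a-3p: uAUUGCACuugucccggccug

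The 3′ UTR of 39 of the genes, from GENCODE vM21 on GRCm38, was searched on the transcript strand for matches of 7 bases to each seed. The sites searched were GCACTTT (miR-17 and miR-20a), GCACCTT (miR-18a), TTTGCAC (miR-19a and miR-19b) and GTGCAAT (miR-92a). The miR-92a site was in 7 of the 39 genes, 17.9%, and in 8.2% of the 11716 tested genes with a 3′ UTR. The miR-17 and miR-20a site was in 2 of the 39, 5.1%, against 15.5% of tested genes. The miR-18a site was in 5, 12.8% against 10.4%, and the miR-19 site in 7, 17.9% against 14.5%. At least 1 of the sites was in 16 genes, 41.0%, against 36.3% of tested genes, and the median 3′ UTR was 1137 bases long in the 39 genes and 1410 in all. The miR-92a sites are shown because they lie in matrix genes of different kinds: both chains of type I collagen, a chain of type V collagen, the proteoglycan biglycan and the microfibril protein fibrillin 1, with the transcription factor Meis1. Lox held the seventh. Capitals mark the site in each stretch of 3′ UTR, on GRCm38.
Col1a1, chr11:94952372-94952400, plus strand: tctattcctcaGTGCAATtgtgttgctga
Col1a2, chr6:4540823-4540851, plus strand: gtcagagcagtGTGCAATatgatccaact
Col5a1, chr2:28037696-28037724, plus strand: cccacaagaatGTGCAATaatttggaaat
Bgn, chrX:73495915-73495933, plus strand: aaagaaacactGTGCAATa
Fbn1, chr2:125300760-125300788, minus strand: tcacacagcatGTGCAATacgccaaaatc
Meis1, chr11:18884187-18884215, minus strand: gacctttatgtGTGCAATatcttactgcc

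Pdgfra, the receptor for platelet-derived growth factor A, held sites of the other 3 seed families, which are shown as the gene with the most families among the 40.
Pdgfra, miR-17 and miR-20a, chr5:75197974-75198002, plus strand: cgttaactgttGCACTTTtgaatgtccaa
Pdgfra, miR-18a, chr5:75196294-75196322, plus strand: cttcaacatcaGCACCTTactttttctct
Pdgfra, miR-19a and miR-19b, chr5:75197287-75197315, plus strand: tttaccactcaTTTGCACagcctctgttt
The further carriers were Smoc2 for miR-17 and miR-20a, Col5a1, Cxcl12, Fbln5 and Thbs1 for miR-18a, and Cxcl12, Lum, Mfap4, Postn, Smoc2 and Tnc for miR-19. In Smoc2 the sites of the miR-17 and miR-19 families overlap. No match to these letters was found in the 3′ UTR of Ogn, Col5a2 or Fn1, which had the 3 lowest p-values of the list in the comparison of genotypes below. A match is a description of the sequence and was not tested as a site of binding.

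Reads worked out from the table came to between 27602025 and 36134381 per library. At this depth 1 read on a gene of 1 kb was worth 0.0277 to 0.0362 RPKM (reads per kilobase of gene, scaled to library depth). Mir17, the first microRNA of the targeted cluster, was at 12.5, 8.57 and 6.77 RPKM in controls 1, 2 and 3 and at 0.787, 0 and 0 RPKM in mutants 1, 2 and 3 (limma adjusted p = 8.54e-05). Its host transcript Mir17hg was between 33.6 and 52.9 RPKM in controls and between 183 and 259 RPKM in mutants. Xist was 0.034 and 0.0278 RPKM in controls 2 and 3 and between 60.1 and 180 RPKM in the other libraries, so the sexes in the pools differed. The labelled cell type was checked against 10 progenitor markers: Six2 was between 57 and 104 RPKM, and the markers' summed level was 744 to 803 RPKM in controls and 584 to 694 RPKM in mutants. 

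The log2 fold change, mutant minus control, was positive for 35 of the 39 stromal and matrix genes tested. None of the 39 passed the test. Their controls lay further apart than those of all tested genes, with a median range of 1.15 against 0.36 on the log2 scale. Ogn, Bgn, Col5a2 and Fn1, which encode 2 proteoglycans, a minor fibrillar collagen chain and fibronectin, had the lowest p-values, with log2 fold changes between 0.67 and 0.86. Genes were tested with limma on log2(RPKM + 0.5), over the 13463 genes that averaged 0.5 RPKM or more, and p-values were adjusted over all of them. At an adjusted p under 0.05, 0 of 39 genes were called in either direction, against 3.13% of all tested genes. At an unadjusted p under 0.05 the count was 13 of 39, of which 12 were higher and 1, Sparc, lower in mutants, against 19.6% of all tested genes. With voom on the reads worked out from the table, 4 genes were called higher (Col5a2, Ogn, Bgn and Fn1) and none lower, against 2.18% of all genes called higher. Libraries of the genotypes did not overlap, with mutants higher, for Col5a2, Ogn, Fn1, Tnc and Cxcl12, which is 5 of 39 against 7.06% of all tested genes. They did not overlap with mutants lower for 0 of 39, against 18%. The median log2 fold change was 0.37 over the 39 genes and -0.12 over all tested genes, of which 31.9% had a positive value. The 36 genes above that median of all genes are all but Meis2, Mfap4 and Sparc.

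**Figure D1:**
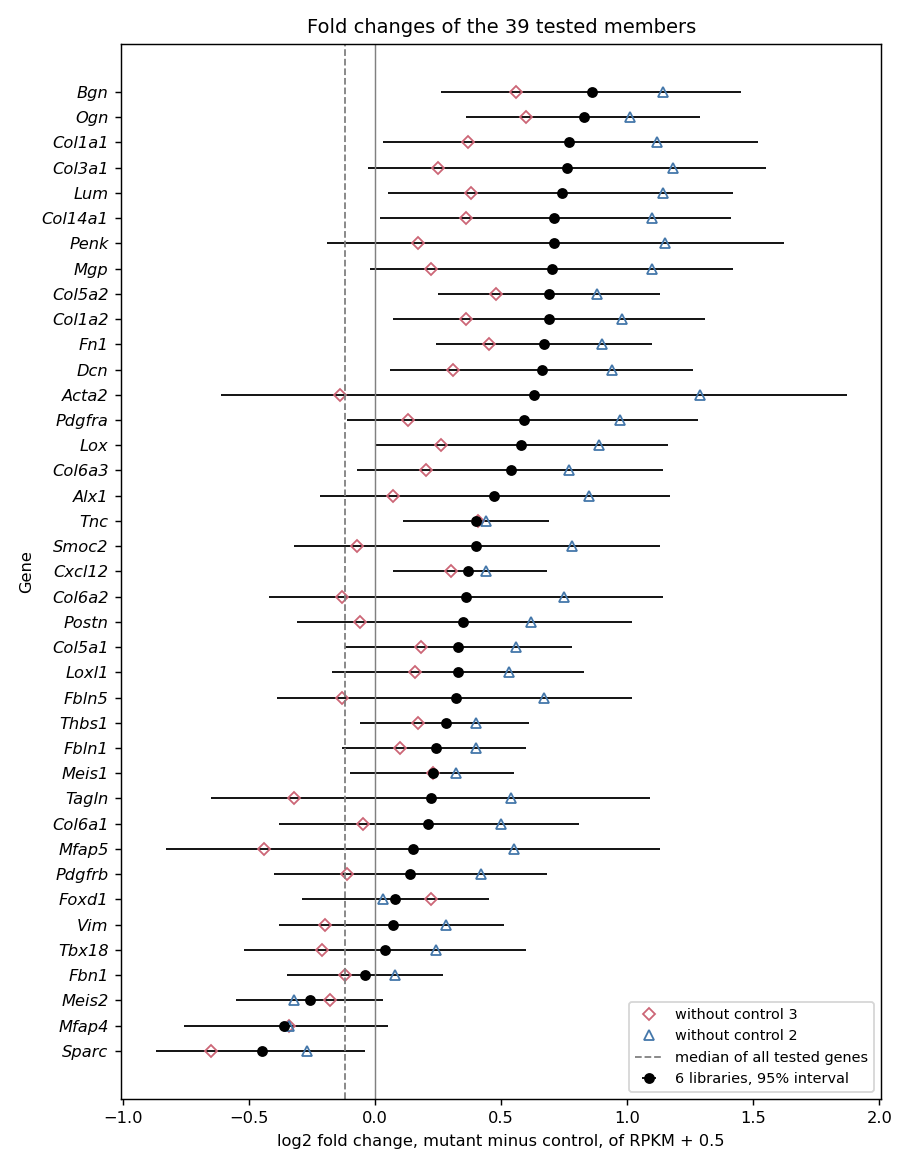
Log2 fold change of RPKM + 0.5, mutant minus control, for the 39 tested genes, with limma's 95% interval over the 6 libraries (black), and the values without control 3 (open diamonds) and without control 2 (open triangles). The values lie between -0.45 (Sparc) and 0.86 (Bgn), and leaving out either control shifts most genes to opposite sides of their value.

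The controls did not share 1 level of these genes. Each gene's log2(RPKM + 0.5) was set against its own mean over the 6 libraries, and the median over the 39 genes was -0.17, 0.32 and -0.95 in controls 1, 2 and 3 and -0.06, 0.39 and 0.29 in mutants 1, 2 and 3. Over all tested genes the same medians lay between -0.16 and 0.10, and that of control 3 was 0.01. A low level of control 3 was also seen outside this set. Its medians were -0.37 for 13 tested further stromal markers and -0.38 for 2 endothelial markers. They were -0.94 for 6 macrophage and leukocyte markers and -0.64 for 4 ureteric bud markers. C1qc, Tyrobp, Ctss, Cdh1 and Tfcp2l1 of those lists reached 0.5 RPKM only through the mutants, so low control values are partly built in. The macrophage and leukocyte median was also below 0 in controls 1 and 2, at -0.31 and -0.40. In control 3 the medians of 10 progenitor and 4 erythroid markers were 0.17 and 0.03. Control 3 was the lowest of the 6 libraries for 33 of the 39 genes, against 17.3% of all tested genes. The controls ran in the order 3, 1, 2 from low to high for 34 of 39 genes, against 34.3% of all. The genes outside that order were Foxd1, Meis1, Meis2, Mfap4 and Tnc. All 3 mutants lay above control 3 for 35 of 39 genes, against 22.9% of all, while the highest library was mutant 2 for 16 genes, control 2 for 11, mutant 3 for 9, mutant 1 for 2 and control 3 for 1. The median distance between the highest and the lowest control was 1.15 on the log2 scale for the 39 genes and 0.36 for all tested genes, and between mutants it was 0.47 and 0.33. For 35 of 39 genes this distance between controls was larger than the size of the log2 fold change between genotypes. A range is a different measure from a difference between means, and the share of all tested genes was not counted. That count is therefore not read as a trait of these genes.

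**Figure D2:**
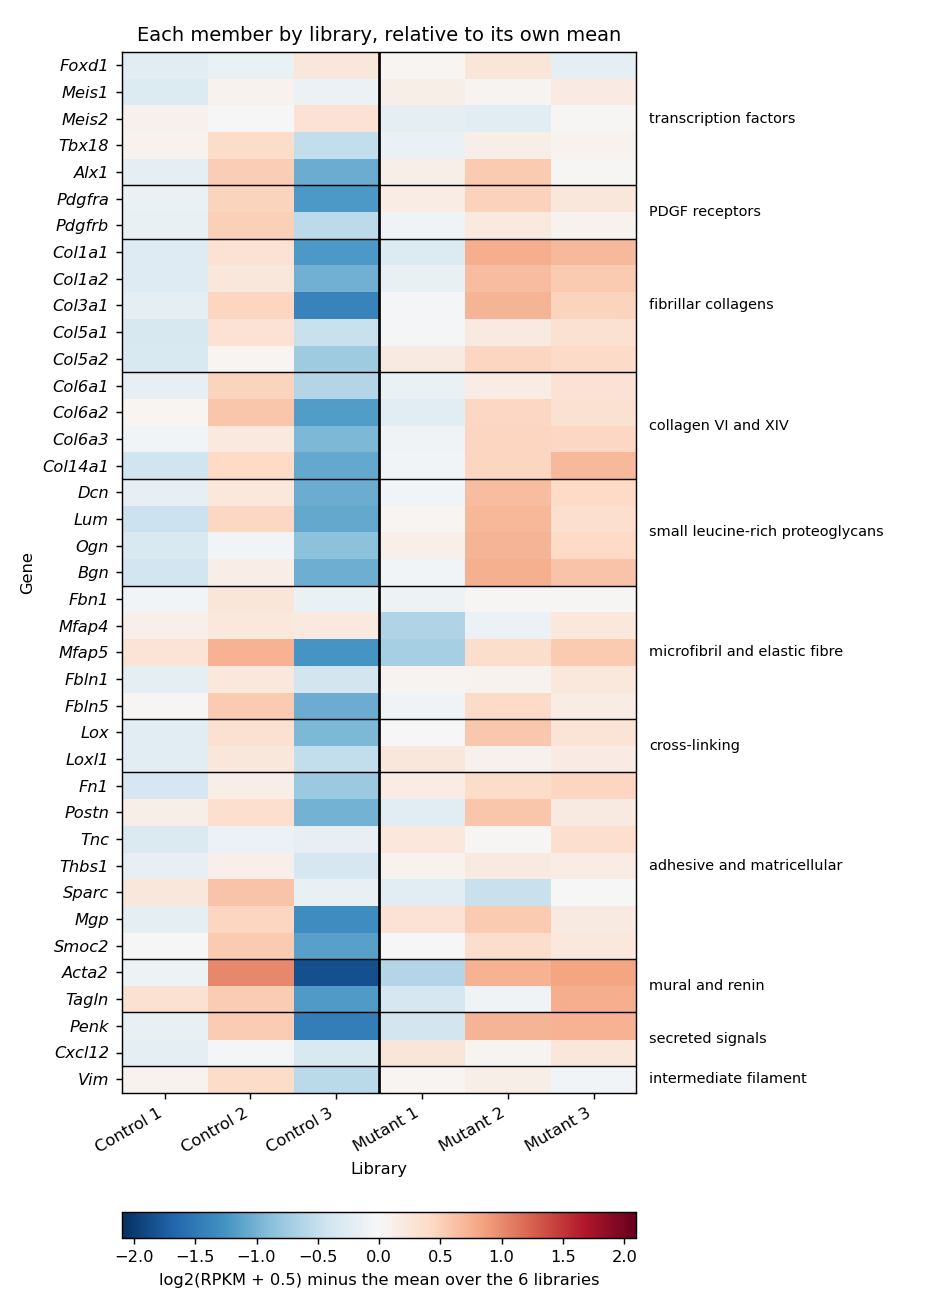
Each of the 39 tested genes (rows, by role) in each library (columns), as log2(RPKM + 0.5) minus the gene's mean over the 6 libraries, with blue below and red above that mean. The column of control 3 is blue in most rows (it was the lowest library for 33 of 39 genes), whereas Foxd1, Meis1, Meis2, Mfap4 and Tnc do not share the order of the controls.

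The calls depended on which control was in the comparison. Without control 2, 13 of 39 genes were called higher in mutants, against 1.88% of all tested genes: Pdgfra, Col1a1, Col1a2, Col3a1, Col5a2, Col14a1, Dcn, Lum, Ogn, Bgn, Lox, Fn1 and Mgp. The median log2 fold change of the list was then 0.67, and -0.10 over all genes. Without control 3, 1 gene was called higher (Ogn, log2 fold change 0.60, limma adjusted p = 0.0463) and 1 lower (Sparc, -0.65, limma adjusted p = 0.0207), against 8.04% of all tested genes in either direction. The median of the list was then 0.17, and -0.14 over all genes. With median-of-ratios scaling, which brought the median of all genes to -0.01, the list's median was 0.49 and Ogn, Tnc and Cxcl12 were called higher, against 2.1% of all genes. The split of all calls moved with that scaling too, from 178 higher and 244 lower to 282 higher and 154 lower. 

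Other markers were read in the same libraries. Of 18 further stromal markers, 13 were tested and 0 called (6 at an unadjusted p under 0.05, and 1 called by voom), and the summed level of all 18 was 360, 429 and 295 RPKM in controls 1, 2 and 3 and 352, 336 and 384 RPKM in mutants 1, 2 and 3. The sum was lowest in control 3, but Aldh1a2 alone gave 294, 348 and 242 RPKM of it in controls 1, 2 and 3. Gene by gene, control 3 was lowest for 7 of the 13 tested markers, against 17.3% of all tested genes. The lowest p-values there were those of Ecm1 (log2 fold change 0.98, limma adjusted p = 0.113) and Clca3a1 (0.74, adjusted p = 0.148). Of the 6 at an unadjusted p under 0.05, 5 were higher and 1, Rarb, was lower (-0.34, limma adjusted p = 0.217). The 5 were Ecm1, Clca3a1, Fibin (0.54), Lef1 (0.41) and Wnt4 (0.37). Whether stromal cells or nephron cells made these transcripts was not tested, so the 5 are not read as a rise of stroma. Among all tested genes 19.6% reached an unadjusted p under 0.05, and 3.13% were called by limma in either direction. Voom called 293 of the 13463 tested genes higher and 393 lower. The median of the 13 was 0.28, and 0.08 without control 3. Gata3, which was not tested, is also among the ureteric bud markers below. Of 14 macrophage and leukocyte markers, 6 reached the minimum for testing, and Fcer1g, a subunit of immunoglobulin receptors, rose (log2 fold change 1.24, limma adjusted p = 0.00264, and 0.0214 by voom). Ctss and Tyrobp averaged 0.208 and 0.433 RPKM in controls and 1.57 and 1.54 RPKM in mutants, so they reached the minimum only through the mutants, and their limma adjusted p of 0.0046 and 0.0491 (0.00221 and 0.0564 by voom) is read with that limit. The summed level of all 14 markers was 10.1, 7.35 and 6 RPKM in controls and 19.2, 17 and 18 RPKM in mutants, so that these libraries separated by genotype. Of 10 progenitor markers, 1 was called, Meox1, which fell by 0.95 on the log2 scale (limma adjusted p = 0.00271). A further 5 were at an unadjusted p under 0.05, 4 of them lower, and voom called 2 lower, Meox1 and Crym. The median log2 fold change of the 10 was -0.31, and -0.22 without control 3, so it lay on the other side of the median of all genes from that of the stromal and matrix genes. The tested ureteric bud markers, 4 of 10, had 0 calls (2 at an unadjusted p under 0.05, 1 by voom), and all 10 summed to 1.54 to 5.02 RPKM in controls and 2.5 to 8.67 RPKM in mutants. The 2 were Cdh1 and Tfcp2l1, which averaged 0.282 and 0.405 RPKM in controls and 0.727 and 1.35 RPKM in mutants. They too reached the minimum only through the mutants. The 2 tested of 9 endothelial markers and the 4 tested of 6 erythroid markers had 0 calls, 0 at an unadjusted p under 0.05 and 0 by voom. All 9 endothelial markers summed to 2.85 to 5.46 RPKM in controls and 5.25 to 5.46 RPKM in mutants, and the 5 erythroid markers found in the table to 6.92 to 13.3 and 8.36 to 12.7 RPKM. No marker found in the table was at 0 in all libraries, and Tyrobp was at 0 in control 3. The part of other cell types, of sex and of the sort in the differences between controls was not tested.

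**Figure D3:**
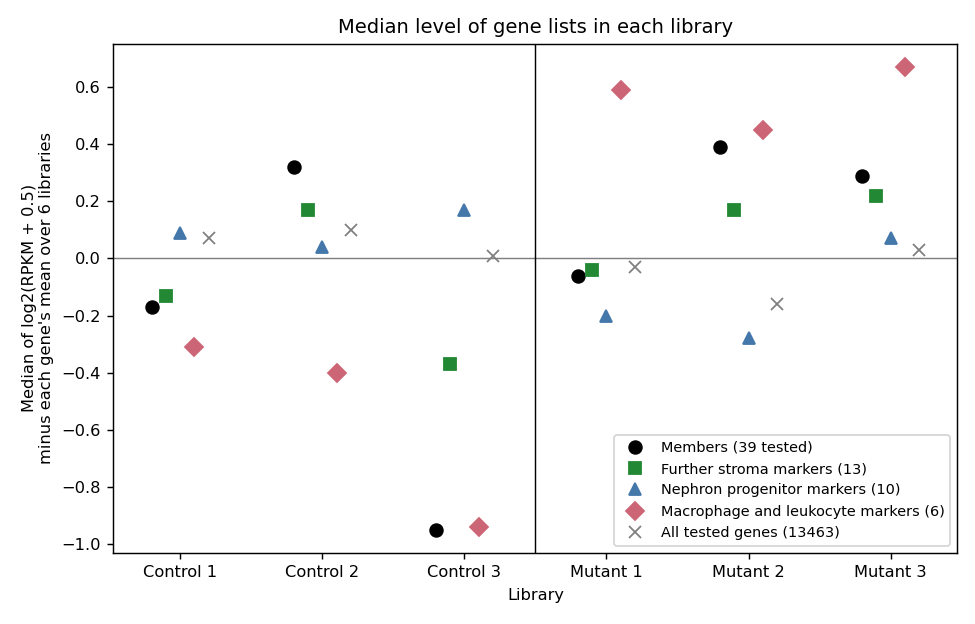
Median over each list of log2(RPKM + 0.5) minus each gene's mean over the 6 libraries, by library; points are medians over the tested genes of a list. In control 3 the 39 stromal and matrix genes were at -0.95, the further stromal markers at -0.37, the macrophage and leukocyte markers at -0.94, the progenitor markers at 0.17 and all tested genes at 0.01. The ureteric bud, endothelial and erythroid lists, at -0.64, -0.38 and 0.03 in control 3, are not drawn.

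The 5 transcription factors of the list had a median log2 fold change of 0.08, and 0.07 without control 3. Foxd1, which marks the stromal lineage, was at 8.84, 9.42 and 12.4 RPKM in controls 1, 2 and 3 and at 10.8, 12.6 and 9.1 RPKM in mutants 1, 2 and 3. The groups overlapped, with control 1 lowest and mutant 2 highest, and the log2 fold change was 0.08 ± 0.17 (SE; limma adjusted p = 0.805). Control 3, the lowest library for most matrix genes, thus had the highest Foxd1 of the controls. Meis1, a homeobox factor of stroma, was at 4.87, 6.38 and 5.54 RPKM in controls and 6.64, 6.32 and 6.88 RPKM in mutants (log2 fold change 0.23 ± 0.15 SE, limma adjusted p = 0.403). Mutant 2 lay just under control 2, so the groups overlapped. Meis2, a related factor and the list's second most abundant transcript per length in controls, was at 93.7, 89.2 and 109 RPKM in controls and 77.2, 75.8 and 89.8 RPKM in mutants (-0.26 ± 0.13 SE, limma adjusted p = 0.303). Mutant 3 lay just above control 2, and the other mutants lay below all controls. Alx1, a factor of head and limb mesenchyme, was at 1.99, 3.54 and 0.87 RPKM in controls and 2.58, 3.65 and 2.38 RPKM in mutants (0.47 ± 0.32 SE, limma adjusted p = 0.418). Control 3 was lowest and the groups overlapped. Tbx18, a T-box factor of the stroma around the ureter, was between 0.228 and 0.869 RPKM in all libraries, with both ends of the range in controls.

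The receptors for platelet-derived growth factor mark interstitial and perivascular cells. Pdgfra was at 7.3, 11.4 and 3.21 RPKM in controls 1, 2 and 3 and at 9.09, 11.5 and 9.65 RPKM in mutants 1, 2 and 3. Control 3 was far below the rest and control 2 was next to the highest mutant. The log2 fold change was 0.59 ± 0.32 (SE; limma adjusted p = 0.327), and 0.13 without control 3. Pdgfrb was at 1.73, 3.03 and 1.19 RPKM in controls and 1.86, 2.35 and 2.13 RPKM in mutants (0.14 ± 0.25 SE, limma adjusted p = 0.768). Here the controls enclosed all mutants, and without control 3 the value was -0.11.

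Type I and type III collagens form the bulk of interstitial fibrils, and type V collagen starts and limits fibril growth. Col1a1 was at 18.6, 28.2 and 9.58 RPKM in controls 1, 2 and 3 and at 18.5, 38.7 and 36.8 RPKM in mutants 1, 2 and 3, with means of 18.8 ± 9.31 and 31.3 ± 11.2 RPKM (SD, n = 3). Mutant 1 sat at the level of control 1, and mutants 2 and 3 lay above every control. The log2 fold change was 0.77 ± 0.34 (SE; limma adjusted p = 0.244). Col1a2, the partner chain, was at 14.9, 21.3 and 8.66 RPKM in controls and 16, 28.4 and 26.7 RPKM in mutants (0.69 ± 0.28 SE, limma adjusted p = 0.217), in the same order of libraries apart from mutant 1, which lay just above control 1. Col3a1, the most abundant collagen of the list per length, was at 34, 53.5 and 14.4 RPKM in controls and 37.7, 63.8 and 54.1 RPKM in mutants. Its controls spanned 3.73-fold, and the log2 fold change of 0.76 ± 0.36 (SE; limma adjusted p = 0.272) became 0.25 without control 3. Col5a2, on chromosome 1 from 45374331 to 45503282 (GRCm38, minus strand), was at 3.31, 4.42 and 2.33 RPKM in controls and 4.91, 5.99 and 5.82 RPKM in mutants. The groups did not overlap, and the means were 3.36 ± 1.05 and 5.57 ± 0.581 RPKM (SD, n = 3). It had a log2 fold change of 0.69 (95% interval 0.25 to 1.13, limma adjusted p = 0.0987), and the adjusted p ran from 0.0156 without control 2 to 0.333 across the alternatives. Col5a1 was between 2.55 and 4.76 RPKM, with the highest control, at 4.65 RPKM, next to the highest mutant.

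Collagen VI forms beaded filaments around cells, and collagen XIV sits on the surface of fibrils. Col6a1 was at 0.7, 1.36 and 0.376 RPKM in controls 1, 2 and 3 and at 0.715, 0.996 and 1.17 RPKM in mutants 1, 2 and 3. Col6a2 was at 2.91, 4.48 and 0.973 RPKM in controls and at 2.36, 3.97 and 3.66 RPKM in mutants. For both chains control 2 was the highest and control 3 the lowest library, and the log2 fold changes of 0.21 and 0.36 (limma adjusted p = 0.674 and 0.578) were -0.05 and -0.13 without control 3. Col6a3 was at 1.96, 2.44 and 0.83 RPKM in controls and at 1.93, 3 and 2.96 RPKM in mutants (0.54 ± 0.28 SE, limma adjusted p = 0.303). Col14a1 was at 1.99, 3.94 and 1.08 RPKM in controls and at 2.7, 4.02 and 4.83 RPKM in mutants (0.71 ± 0.32 SE, limma adjusted p = 0.247). In these 2 genes mutants 2 and 3 lay above all controls and mutant 1 did not.

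The small leucine-rich proteoglycans, which bind collagen fibrils, had the highest median log2 fold change of the 11 role groups, 0.78, and 0.47 without control 3. Ogn (osteoglycin), on chromosome 13 from 49608015 to 49624501 (GRCm38, plus strand), was at 10.8, 13.1 and 7.21 RPKM in controls 1, 2 and 3 and at 14.6, 22.7 and 18.3 RPKM in mutants 1, 2 and 3. Every mutant lay above every control, and the means were 10.4 ± 2.95 and 18.6 ± 4.03 RPKM (SD, n = 3). It had a log2 fold change of 0.83 (95% interval 0.36 to 1.29), and its limma adjusted p of 0.0607, the lowest of the list, ranged from 0.00666 to 0.3 over the alternatives. Bgn (biglycan), on chromosome X from 73483601 to 73495936 (GRCm38, plus strand), was at 11, 16.3 and 6.94 RPKM in controls and 14.1, 25.1 and 22.4 RPKM in mutants. Mutant 1 lay below control 2, so the groups overlapped, and the log2 fold change was 0.86 (95% interval 0.26 to 1.45, limma adjusted p = 0.124). Dcn (decorin) was at 17, 22.4 and 9.04 RPKM in controls and 18.4, 30.2 and 25.8 RPKM in mutants (0.66 ± 0.27 SE, limma adjusted p = 0.22). Lum (lumican) was at 3.04, 6.07 and 1.8 RPKM in controls and 4.51, 7.41 and 5.74 RPKM in mutants (0.74 ± 0.31 SE, limma adjusted p = 0.229). For both, control 3 was lowest and mutant 2 highest, and control 2 lay among the mutants.

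The 5 microfibril and elastic fibre genes had a median log2 fold change of 0.15, and of -0.13 without control 3, beside 0.69 and 0.36 for the 5 fibrillar collagens. Mfap4, a microfibril-associated glycoprotein, was at 68.5, 73.7 and 73.3 RPKM in controls 1, 2 and 3 and at 40.5, 58.4 and 73.9 RPKM in mutants 1, 2 and 3 (-0.36 ± 0.19 SE, limma adjusted p = 0.309). Its controls lay within 1.08-fold of each other, and the mutants were spread from well below them to just above. Mfap5, another microfibril glycoprotein, was at 2.26, 3.27 and 0.453 RPKM in controls and 0.889, 2.42 and 2.82 RPKM in mutants (0.15 ± 0.45 SE, limma adjusted p = 0.87). The controls spanned 7.22-fold and enclosed all mutants. Fbln1 (fibulin 1) was at 6.57, 8.87 and 5.66 RPKM in controls and 7.92, 7.95 and 8.88 RPKM in mutants (0.24 ± 0.17 SE, limma adjusted p = 0.443). Fbln5 (fibulin 5) was at 2.9, 4.42 and 1.12 RPKM in controls and 2.68, 3.91 and 3.23 RPKM in mutants (0.32 ± 0.32 SE, limma adjusted p = 0.589). Both fibulins were lowest in control 3 and their groups overlapped. Fbn1 (fibrillin 1), the backbone of microfibrils, was between 12.6 and 16.7 RPKM in all 6 libraries (log2 fold change -0.04), although 20.14% of its exon bases overlap a gene on the opposite strand and the strand setting of the counts is not given in the sources used here.

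Lysyl oxidases cross-link collagen and elastin. Lox was at 7, 10.6 and 4.12 RPKM in controls 1, 2 and 3 and at 8.45, 12.7 and 10.4 RPKM in mutants 1, 2 and 3 (0.58 ± 0.27 SE, limma adjusted p = 0.253). Loxl1 was at 0.62, 1.04 and 0.416 RPKM in controls and 1.04, 0.895 and 0.966 RPKM in mutants (0.33 ± 0.23 SE, limma adjusted p = 0.426). Control 3 was lowest for both enzymes, and control 2 lay among the mutants.

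Adhesive and matricellular proteins connect cells to the fibrils. Fn1 (fibronectin), on chromosome 1 from 71585473 to 71653280 (GRCm38, minus strand), was at 18.8, 26.2 and 13.8 RPKM in controls 1, 2 and 3 and at 26.9, 31.6 and 33 RPKM in mutants 1, 2 and 3. The lowest mutant lay just above the highest control, and the means were 19.6 ± 6.24 and 30.5 ± 3.16 RPKM (SD, n = 3). The log2 fold change was 0.67 (95% interval 0.24 to 1.10, limma adjusted p = 0.102), and the adjusted p ran from 0.00401 to 0.338 over the alternatives. Tnc (tenascin C), on chromosome 4 from 63959785 to 64047015 (GRCm38, minus strand), was at 20.8, 23.5 and 22.6 RPKM in controls and 29.9, 26.2 and 33 RPKM in mutants. Unlike most of the list, Tnc had controls within 1.13-fold of each other, and every mutant lay above them, with means of 22.3 ± 1.38 and 29.7 ± 3.4 RPKM (SD, n = 3). Its log2 fold change of 0.40 (95% interval 0.11 to 0.69) had a limma adjusted p of 0.137, and of 0.0268 with median-of-ratios scaling. Sparc (osteonectin), a collagen-binding protein and the most abundant transcript of the list per length in controls, was at 100, 128 and 75.7 RPKM in controls and 72.7, 61.1 and 84.9 RPKM in mutants. It had the lowest log2 fold change of the list, -0.45 (95% interval -0.87 to -0.04, limma adjusted p = 0.224). Only mutant 3 lay within the range of the controls, and without control 3 the value was -0.65. Mgp (matrix Gla protein), an inhibitor of calcification, was at 12.2, 19.3 and 5.34 RPKM in controls and 17.4, 20.7 and 16.1 RPKM in mutants (0.70 ± 0.33 SE, limma adjusted p = 0.265). Thbs1 (thrombospondin 1), which binds latent TGF-beta, was between 6.17 and 9.25 RPKM, Postn (periostin) between 5.98 and 18.8 RPKM and Smoc2, a calcium-binding matrix protein, between 1.08 and 4.61 RPKM. Each of these 4 genes was lowest in control 3.

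Mural cells are the contractile cells of vessel walls, and their gene Acta2, the smooth muscle actin, had the widest spread of the list between controls. It was at 11, 24.4 and 2.92 RPKM in controls 1, 2 and 3 and at 7.57, 19.9 and 21.4 RPKM in mutants 1, 2 and 3. Controls 2 and 3 differed by 8.36-fold, on 1568 and 146 reads, and enclosed all mutants. The log2 fold change was 0.63 ± 0.57 (SE; limma adjusted p = 0.54), and -0.14 without control 3. Tagln (transgelin), an actin-binding protein of smooth muscle, was at 3.87, 4.52 and 1.03 RPKM in controls and 2.23, 2.79 and 5.41 RPKM in mutants (0.22 ± 0.40 SE, limma adjusted p = 0.77). Its values are uncertain, since 67.86% of its exon bases overlap Pcsk7 and Gm48529 on the opposite strand. The same holds to a lesser degree for Tbx18, Meis1 and Penk, with 20.56%, 18.28% and 14.26% of exon bases overlapped by other genes. Ren1 (renin), the enzyme that starts the angiotensin cascade, was below the minimum for testing, with 4, 16 and 0 reads in controls and 36, 5 and 5 reads in mutants. The 36 reads of mutant 1 set it apart from the other mutants, and the groups overlapped (exact two-sided permutation p = 0.5, where 0.1 is the smallest that 3 against 3 can give).

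Among secreted signals, Penk (proenkephalin), the precursor of enkephalin peptides, was at 17.9, 28.9 and 7 RPKM in controls 1, 2 and 3 and at 15.2, 33.1 and 33.2 RPKM in mutants 1, 2 and 3 (0.71 ± 0.41 SE, limma adjusted p = 0.356). Mutant 1 lay below control 1, and control 3 was far below the rest. Cxcl12, the chemokine that binds CXCR4, was at 9.08, 10.1 and 8.23 RPKM in controls and 12.5, 10.9 and 12.4 RPKM in mutants. Every mutant lay above every control, with means of 9.12 ± 0.918 and 11.9 ± 0.925 RPKM (SD, n = 3), and the log2 fold change was 0.37 (95% interval 0.07 to 0.68, limma adjusted p = 0.18). Vim (vimentin), the intermediate filament of mesenchymal cells, was at 68.9, 85.4 and 43.9 RPKM in controls and 67, 71.1 and 62.3 RPKM in mutants (0.07 ± 0.20 SE, limma adjusted p = 0.872). The controls enclosed the mutants, with control 3 lowest.

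**Figure D4:**
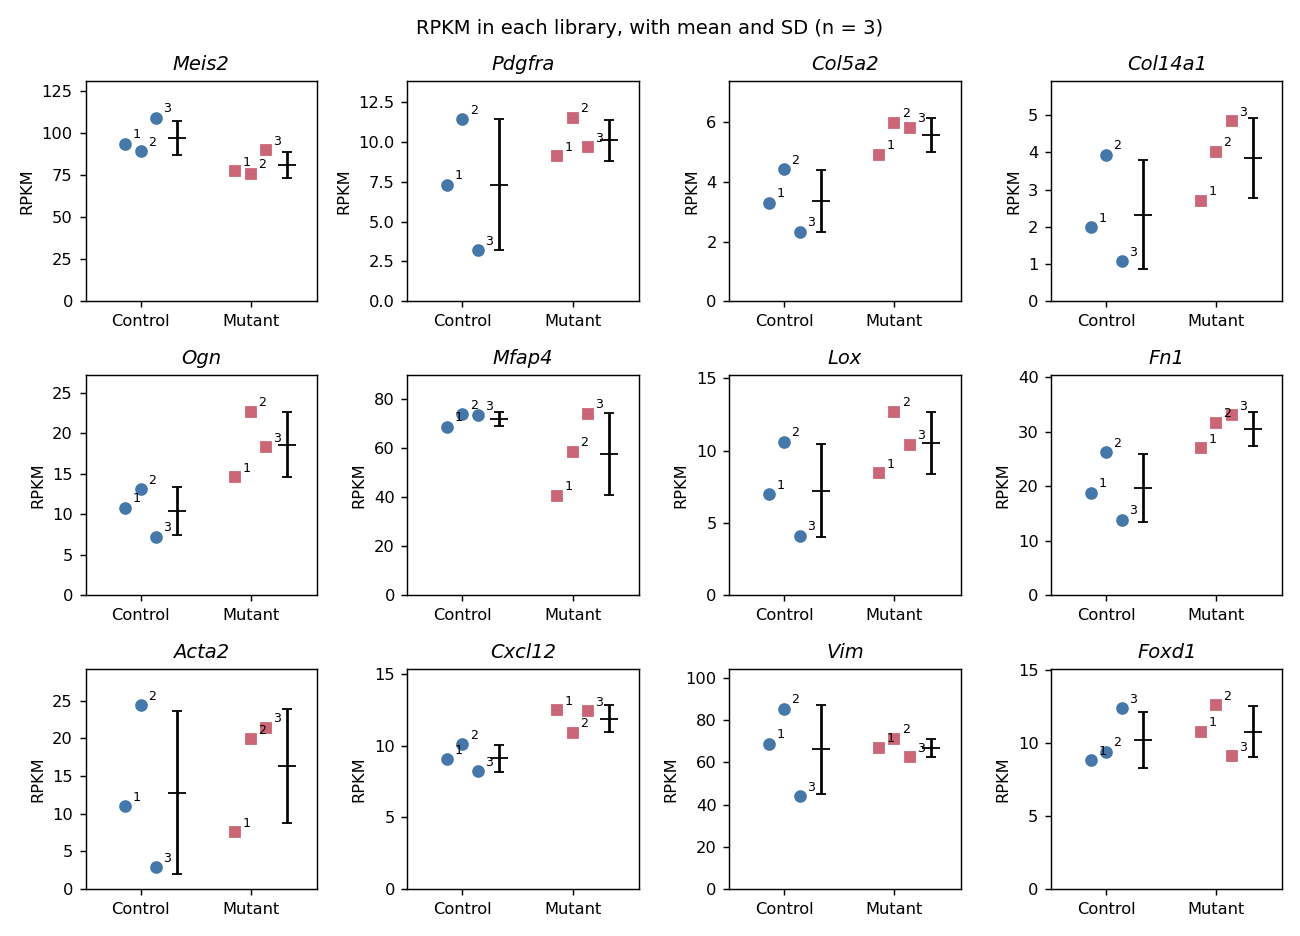
RPKM in each library (circles, controls; squares, mutants; the number is the replicate), with mean and SD (n = 3), for the gene of lowest p in each role group and for Foxd1. Mutants lie above all controls for Col5a2, Ogn, Fn1 and Cxcl12, and control 3 is the lowest library in each panel except Meis2, Mfap4 and Foxd1.

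Ratios of 6 pairs of genes within a library were compared, since a level common to both genes cancels there. The pairs were chosen after the values had been seen. The ratio of Col1a1 to Col1a2, the chains of the type I trimer, was 1.23 ± 0.111 in controls and 1.3 ± 0.127 in mutants (SD, n = 3, exact two-sided permutation p = 0.5, 0.75 adjusted over the 6 pairs). The ratio of Col5a1 to Col5a2 was 0.857, 1.05 and 1.09 in controls and 0.738, 0.716 and 0.818 in mutants. The ratio of Pdgfra to Pdgfrb was 4.22, 3.78 and 2.7 in controls and 4.88, 4.91 and 4.54 in mutants. In both of these pairs the genotypes did not overlap, with an exact permutation p of 0.1, the smallest that 3 against 3 can give, and of 0.3 adjusted over the 6 pairs. The ratios of Col3a1 to Col1a1, Col6a1 to Col6a2 and Col6a3 to Col6a2 overlapped between genotypes, with exact permutation p of 0.9, 0.9 and 0.4.

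The 7 genes with a miR-92a site had log2 fold changes between -0.04 (Fbn1) and 0.86 (Bgn), with a median of 0.58, beside a median of 0.37 for the other 32. The 7 with a miR-19 site had a median of 0.40, beside 0.35 for the other 32, and the 5 with a miR-18a site had a median of 0.33, beside 0.40 for the other 34. Pdgfra and Smoc2, with the miR-17 and miR-20a site, had values of 0.59 and 0.40, beside a median of 0.36 for the other 37. None of these genes was called, and the groups by site overlapped in range. These values are from all 6 libraries. Without control 3 the 7 genes with a miR-92a site lay between -0.12 (Fbn1) and 0.56 (Bgn), and the median of all 39 genes was 0.17.

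The matrix genes outside the list were read in 5 lists by function. Of 15 other interstitial collagens 11 were tested, and 1 rose: Col12a1, a collagen of the fibril surface like collagen XIV, at 2.87, 3.99 and 1.72 RPKM in controls 1, 2 and 3 and 5.15, 7.09 and 5.95 RPKM in mutants 1, 2 and 3. Every mutant lay above every control, and the log2 fold change was 1.01 ± 0.23 (SE; limma adjusted p = 0.0403). The call was lost without control 1 (adjusted p = 0.0809), without mutants 1, 2 or 3 (0.0954, 0.235 and 0.107), with no trend (0.0622) and when low genes were kept in the fit (0.172), while without control 3 the log2 fold change was 0.74 (adjusted p = 0.0302). Of the 11, 5 were at an unadjusted p under 0.05, 2 higher and 3 lower, and voom called 2 higher (Col12a1 and Col15a1) and 3 lower. The 3 lower by voom, named after their values were seen, were Col6a6 (-0.74, limma adjusted p = 0.0976, voom 0.00579), Col26a1 (-0.58, 0.105 and 0.0397) and Col2a1 (-0.47, 0.0938 and 0.0427). Col15a1 averaged 0.499 RPKM in controls and 1.12 RPKM in mutants, so it reached the minimum for testing only through the mutants. Col6a6 averaged 0.984 RPKM in controls and 0.385 RPKM in mutants, so it did so only through the controls. Their voom calls are read with that limit. Of 25 genes that modify and trim collagen 21 were tested and 0 called (3 at an unadjusted p under 0.05, and 1 higher and 1 lower by voom). The 1 higher by voom, Adamts3, averaged 0.318 RPKM in controls and 0.723 RPKM in mutants, so it too reached the minimum only through the mutants. The lowest p-values were those of Bmp1, the procollagen C-proteinase (-0.53, limma adjusted p = 0.112), and P3h2, a prolyl hydroxylase (0.63, adjusted p = 0.114). Of 15 elastic fibre genes 12 were tested and 0 called (0 at an unadjusted p under 0.05 and 0 by voom), with Fbln2 at -0.48 (adjusted p = 0.258) and Ltbp1 at -0.24 (adjusted p = 0.305). Of 14 genes of matrix breakdown 11 were tested and 0 called (2 at an unadjusted p under 0.05, both higher, and 2 by voom): Timp3, an inhibitor of metalloproteinases, was at 0.69 (adjusted p = 0.123) and Adamts5, an aggrecan-cleaving protease, at 0.67 (adjusted p = 0.15). Of 13 genes around TGF-beta 10 were tested and 0 called (4 at an unadjusted p under 0.05, 3 higher and 1 lower, and 2 higher by voom). The lowest p-values were those of the matricellular genes Ccn1 at 0.63 (limma adjusted p = 0.0967) and Ccn2 at 0.92 (adjusted p = 0.102). The lower gene was Tgfbr1, a TGF-beta receptor (-0.43, limma adjusted p = 0.111), and the median of the 10 was -0.12. Control 3 was the lowest library for 14 of the 21 collagen-modifying genes, 5 of the 12 elastic fibre genes, 5 of the 11 other collagens, 4 of the 11 breakdown genes and 4 of the 10 TGF-beta genes. Among all tested genes it was lowest for 17.3%. Of all tested genes, 3.13% were called by limma in either direction and 19.6% reached an unadjusted p under 0.05. Voom called 293 of the 13463 higher and 393 lower.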

How the data were processed

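The authors deposited 1 table of RPKM values (reads per kilobase, scaled to depth) for 27179 Entrez Gene entries in 6 libraries. The submitters' processing notes name mm10, FastQC and limma; the aligner, counting tool, annotation and strand setting are not given in the sources used. Symbols were matched for 25293 entries. Low RPKM values are multiples of 1 read. Whole reads, within 0.1 of a read, were recovered for all 13463 tested genes and summed to between 99.77% and 99.82% of depth. In a simulation 99.33% of 1500 genes came out right. A unit may be a read or a read pair.

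For the genotype comparison limma 3.58.1 (R 4.3.3) was fitted to log2(RPKM + 0.5) of genes averaging 0.5 RPKM or more, with a trend of variance on mean; p-values were two-sided and adjusted by Benjamini-Hochberg, with a threshold of 0.05. The pseudocount of 0.5 shrinks fold changes of low genes. Ren1 and the gene ratios were compared with exact permutation tests. On simulated data of 13368 genes for this comparison, the shares called were 8.1% at a 1.5-fold change, 50% at 2-fold and 95.7% at 4-fold, and 2.53% of calls were false. Python 3.11.15 was used to find sites and shared sequence.

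The genes, the lists and the tests were chosen with earlier results of these data known. Values in every library are given for called genes and for the genes of lowest p, at most 4, in every one of 11 roles, and other genes by range; in related lists, called genes, otherwise the 2 of lowest p. Alternatives covered the pseudocount, the filter on low values, scaling, the variance model, library weights, a replicate block, each library left out, voom, the call threshold and the length of the seed match.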

Additional observations from a re-analysis of the deposited data

How the results depend on the processing

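The count of genes called higher was 0 of 39 with pseudocounts of 0.1 and 1, the other filters, no trend and array weights, and 3 with median-of-ratios scaling, 2 with quantile normalization, 1 with depth without mitochondrial ribosomal RNA, 4 with voom and 2 at an adjusted p under 0.1. Leaving out 1 library gave 0 to 13 genes called higher (13 without control 2) and 0 to 1 lower (1 without control 3). Over all genes, higher and lower calls were 65 and 78 with no filter, 282 and 154 with median-of-ratios scaling, 268 and 149 with depth without mitochondrial ribosomal RNA, 293 and 393 with voom and 284 and 446 at an adjusted p under 0.1; leaving out 1 library gave 66 to 270 and 82 to 813. In the 5 related lists, genes called higher were 0 with no filter and with no trend, 3 with quantile normalization and 3 with median-of-ratios scaling, 2 with depth without mitochondrial ribosomal RNA and 7 with voom, and 0 to 5 with 1 library left out; genes called lower were 1 with no trend, 4 with voom and 0 to 1 with 1 library left out. Matches of 8 bases were in 0 (miR-17 and miR-20a), 1 (miR-18a), 3 (miR-19) and 5 (miR-92a) of the genes. These are 0.0%, 2.6%, 7.7% and 12.8% of the 39, against 4.7%, 1.9%, 6.6% and 3.0% of tested genes with a 3′ UTR. The causes of these shifts were not tested.

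Of the single genes, 26 kept their sign in all 17 alternatives. With all libraries, log2 fold changes of uncalled genes turned for Fbn1, to 0.08 with median-of-ratios scaling, with quantile normalization and with depth without mitochondrial ribosomal RNA; for Tbx18, to -0.01 with quantile normalization and -0.03 with array weights; and for Mfap5, to -0.11 with array weights. With 1 library left out, the range was -0.03 to 0.22 for Foxd1, -0.21 to 0.24 for Tbx18, -0.11 to 0.42 for Pdgfrb, -0.05 to 0.50 for Col6a1, -0.13 to 0.75 for Col6a2, -0.12 to 0.08 for Fbn1, -0.44 to 0.55 for Mfap5, -0.13 to 0.67 for Fbln5, -0.06 to 0.62 for Postn, -0.07 to 0.78 for Smoc2, -0.14 to 1.29 for Acta2, -0.32 to 0.54 for Tagln and -0.20 to 0.28 for Vim.

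Replicate numbers occur in both genotypes. Same-numbered libraries correlated at 0.05, 0.16 and 0.15 in their deviations over 13463 genes, and each library correlated best with its own number. The deviations of a genotype sum to 0 over its libraries, which forces some positive correlations. No pairing of the libraries is therefore read from these values. With a replicate block 1 gene of the list, Ogn, was called higher and 0 lower, and 168 and 225 of all genes.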
